A study of Mus musculus with 12 samples.

Results

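The 10 genes described here carry iron into the liver cell, store it, export it, or make and control hepcidin, the liver hormone that sets iron entry into plasma. They are Hamp, Hamp2, Tfrc, Tfr2, Slc40a1, Slc39a14, Fth1, Ftl1, Trf and Bmp6, and they were taken as the rows of a liver read count table whose identifier maps to these symbols. All 10 were found among the 55357 genes of the table, and all 10 were among the 17358 genes that passed the filter on low counts. The livers came from male C57BL/6J mice in 4 groups. WT mice (PPARa fl/fl AlbuminCre +/+) were given chow (WT chow, n = 4) or a high-fat diet that lacks choline and gives its protein as L-amino acids (WT CDAHFD, or CDAHFD-fed WT, n = 3). Hepatocyte-specific PPARα KO mice (PPARa fl/fl AlbuminCre Tg/+) were given chow (KO chow, or chow-fed KO, n = 2) or CDAHFD (KO CDAHFD, or CDAHFD-fed KO, n = 3). Diets started at 7 weeks of age and lasted 6 weeks. All groups carry the floxed Ppara alleles, and the albumin promoter limits the recombinase to hepatocytes, so other liver cells of the KO mice keep the gene. The groups with CDAHFD differ from chow in choline, amino acid form and fat together.

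Hepcidin, the product of Hamp, binds the iron exporter ferroportin (Slc40a1) and leads to its degradation, so that less iron leaves macrophages, enterocytes and hepatocytes. Hepatocytes raise Hamp transcription when BMP ligands such as Bmp6, which come mainly from sinusoidal endothelial cells, signal through SMAD proteins, and Tfr2 takes part in sensing iron-loaded transferrin. Inside cells, iron regulatory proteins bind hairpins in the untranslated regions (UTRs) of ferritin, ferroportin and Tfrc mRNA and adjust their translation or stability to the iron supply.

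Total counts ran from 29906785 to 43551003 per library, with a median of 36989922. Ppara, the deleted gene, had a level of 96.2 to 237.7 CPM (a gene's count relative to the scaled total of its library) in WT chow, 59.5 to 75.5 in CDAHFD-fed WT, 14.4 to 38.6 in chow-fed KO and 20.7 to 51.9 in CDAHFD-fed KO, so every KO library was below every WT library but none was at 0. The labels list 4 WT chow and 2 KO chow libraries, whereas the study's methods describe 3 mice per group. This was not resolved, and it touches the 3 main comparisons, which all use WT chow as their reference. The summed level of 8 hepatocyte markers was 89600 to 112500 CPM in WT chow, 75880 to 87650 in chow-fed KO, 47350 to 58000 in CDAHFD-fed WT and 46880 to 62190 in CDAHFD-fed KO. That of 6 markers of recruited macrophages was 58.9 to 99.6 CPM in WT chow, 343.2 to 488.5 in chow-fed KO, 1099 to 1591 in CDAHFD-fed WT and 1409 to 1750 in CDAHFD-fed KO. No marker on either list was at 0. Spp1 is on the recruited macrophage list and also on the cholangiocyte list below, so these 2 lists are not separate. In WT chow Spp1 had 860 to 1642 counts per library, beside 392 to 864 of Cd9 on the same macrophage list. Against WT chow, in chow-fed KO, CDAHFD-fed WT and CDAHFD-fed KO in turn, 5, 6 and 6 of 6 cholangiocyte markers were higher, 5, 5 and 6 of 8 stellate cell markers (0, 1 and 1 lower), 5 of 5 markers of dividing cells in each, and 3, 2 and 3 of 5 markers of T and NK cells. Of all genes tested, 22.0%, 26.1% and 26.9% were higher and 17.0%, 25.0% and 25.4% lower. Scaled by library size alone, 6 of 6 cholangiocyte and 5 of 5 dividing cell markers were higher in each. So were 7, 7 and 6 of 8 stellate cell markers and 4, 5 and 5 of 5 T and NK cell markers. That scaling had 40.5%, 52.4% and 56.3% of all genes higher. Libraries also stood apart by clock genes, which follow the time of day. A clock score, the mean log2 level of 5 genes of the Arntl phase minus that of 10 genes of the opposite phase, was below -1 in 4 libraries, namely WT chow replicates 3 and 4, KO chow replicate 2 and KO CDAHFD replicate 3, and above it in the other 8. Calls that change without these 4 libraries are given both ways. The 8 libraries hold 1 KO chow library, which is assumed to vary like the other groups, so values there for chow-fed KO and for the difference of the diet effects rest on that 1 library.

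Iron-responsive elements are the hairpins that iron regulatory proteins bind, and they act on translation or on mRNA stability. Only the amount of RNA is counted here, so an effect on translation is not seen. A scan of the UTRs of GENCODE M21 transcripts for a bulged C, 5 paired bases on each side and the loop CAGTGN found a match in 4 of the 10 genes, and in 0.731% of 21901 protein-coding genes (0.142% in a 5′ UTR and 0.589% in a 3′ UTR). The ferritin and ferroportin matches lie in the 5′ UTR, where bound iron regulatory protein is known to block translation. The 4 Tfrc matches lie in the 3′ UTR, where the bound protein is known to protect the mRNA from decay. The scan does not find elements that depart from this pattern, so these 4 need not be all those of Tfrc. Each sequence is given as DNA on the transcript strand of GRCm38, with the loop in capitals, and a match is a description of the letters.
Fth1, 5′ UTR, chr19:9982733-9982759, plus strand: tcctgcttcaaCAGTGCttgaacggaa
Ftl1, 5′ UTR, chr7:45459780-45459806, minus strand: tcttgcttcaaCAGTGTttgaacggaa
Slc40a1, 5′ UTR, chr1:45925466-45925492, minus strand: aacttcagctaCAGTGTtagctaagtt
Tfrc, 3′ UTR, chr16:32631220-32631246, plus strand: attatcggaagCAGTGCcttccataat
Tfrc, 3′ UTR, chr16:32631599-32631625, plus strand: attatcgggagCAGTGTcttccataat
Tfrc, 3′ UTR, chr16:32631664-32631690, plus strand: tatatcggagaCAGTGAtctccatatg
Tfrc, 3′ UTR, chr16:32631711-32631737, plus strand: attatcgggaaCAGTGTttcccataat

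Hamp (chr7:30942368-30944032) and Hamp2 (chr7:30922372-30924681) are neighbouring copies on the minus strand of chromosome 7 in GRCm38, and their promoters are shown because the 2 genes followed different patterns in the data below. The sequences are the 150 bases before each start in the RefSeq table for GRCm38.p6, 5′ to 3′ on the gene's strand. The first capitals mark GGCGCC, the core of a BMP-responsive element, or the bases that stand at that place in Hamp2, and the second mark TTCTTGGAA, a STAT-type site.
Hamp, chr7:30944030-30944179, minus strand: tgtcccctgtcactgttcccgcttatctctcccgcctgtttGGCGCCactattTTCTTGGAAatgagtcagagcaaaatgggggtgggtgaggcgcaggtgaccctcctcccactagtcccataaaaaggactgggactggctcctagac
Hamp2, chr7:30924182-30924331, minus strand: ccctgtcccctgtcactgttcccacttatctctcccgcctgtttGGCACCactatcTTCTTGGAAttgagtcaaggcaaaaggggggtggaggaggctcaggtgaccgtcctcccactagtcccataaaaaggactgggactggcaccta
Over the 250 bases before the start, 227 aligned bases were identical and 20 were substituted (91.9% identity), with 6 gap columns. GGCGCC was found in Hamp and not in Hamp2, where the substitution is G145A, counted from 1 at 250 bases before the Hamp start. TTCTTGGAA was found in both. Searched on both strands, GGCGCC occurred in 9.59% and TTCTTGGAA in 0.365% of 32851 promoter windows of the same table. That a motif is not in this window says only that these letters are not there.

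In WT chow, levels per kilobase of annotated exon (RPKM, computed from the scaled counts) placed Trf, the plasma iron carrier transferrin, first at 5774, followed by Hamp at 2570, the ferritin light chain Ftl1 at 1060 and the ferritin heavy chain Fth1 at 417.4. Tfr2 stood at 134.3, the importer Slc39a14 (ZIP14) at 28.6, the exporter Slc40a1 at 22.2, Hamp2 at 16.4, the transferrin receptor Tfrc at 4.54 and the ligand Bmp6 at 1.42. The lengths are unions of all annotated exons, so levels of genes with long alternative exons are understated. All levels below are TMM-scaled CPM, which compare libraries but not genes.

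**Figure D1:**
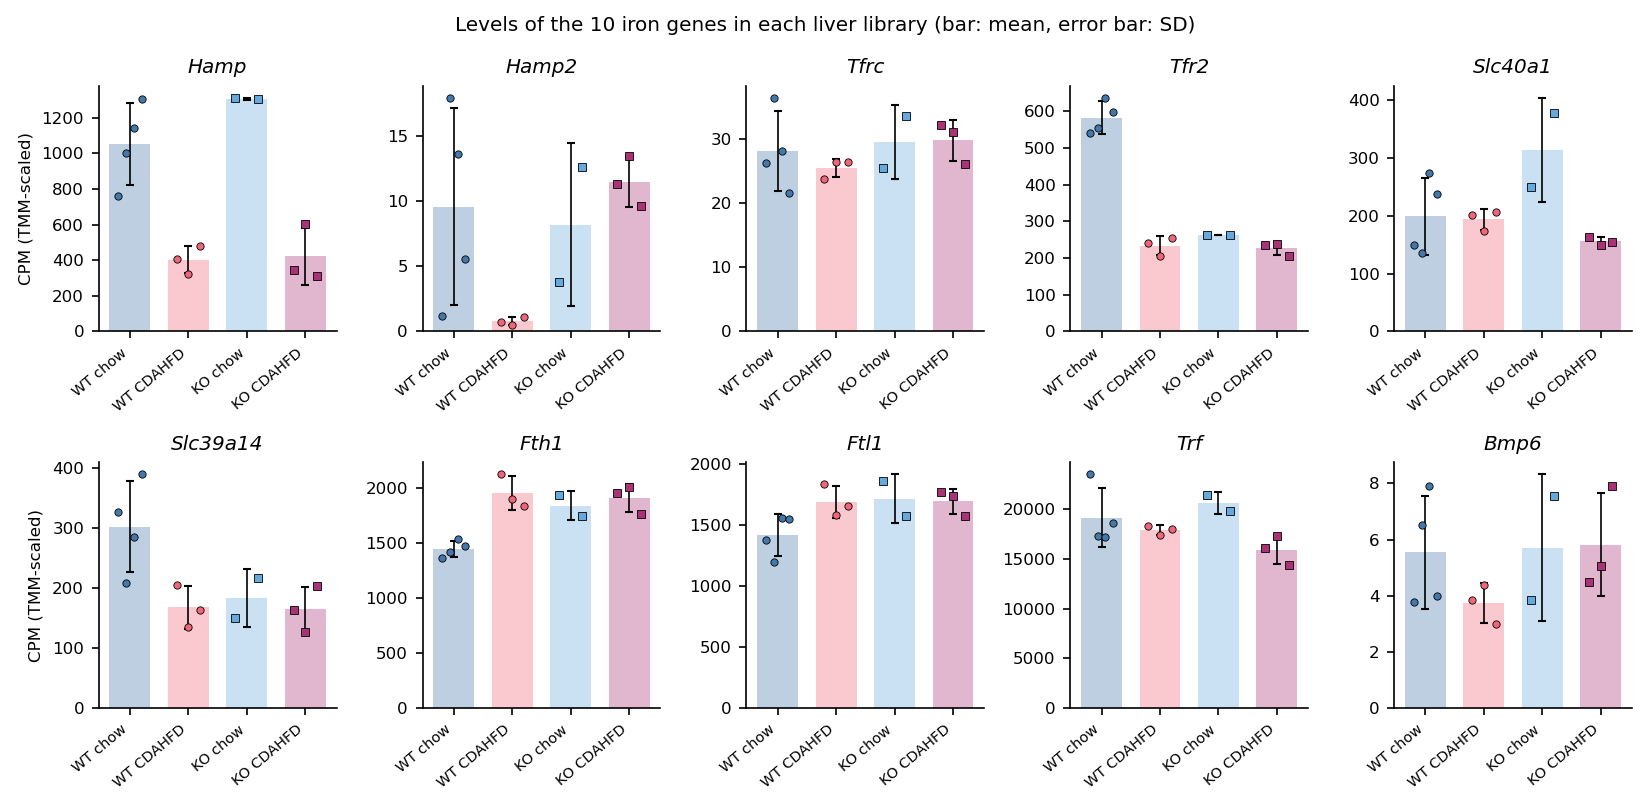
Level of each of the 10 genes in TMM-scaled CPM (vertical axes, linear and from 0) in the 12 liver libraries by group; points are libraries, bars are group means and error bars are SD. Tfr2 was 540.0 to 636.5 CPM in WT chow and 204.6 to 263.3 CPM in the other groups, while Hamp was low in both CDAHFD groups and Hamp2 in WT CDAHFD alone.

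Against WT chow, 3 of the 10 genes passed the test (edgeR quasi-likelihood, adjusted p below 0.05) in chow-fed KO, 5 in CDAHFD-fed WT and 4 in CDAHFD-fed KO. The share of all tested genes that passed was 39.0% in chow-fed KO, 51.1% in CDAHFD-fed WT and 52.4% in CDAHFD-fed KO, so these counts are near the background. By direction, 22.0%, 26.1% and 26.9% of all genes were higher and 17.0%, 25.0% and 25.4% lower. In KO chow Fth1 rose and Tfr2 and Slc39a14 fell. In CDAHFD-fed WT Fth1 rose and Hamp, Hamp2, Tfr2 and Slc39a14 fell, and in CDAHFD-fed KO Fth1 rose and Hamp, Tfr2 and Slc39a14 fell. The median log2 fold change over the 10 genes was 0.09, -0.36 and -0.10 in the 3 comparisons, beside 0.00, -0.05 and -0.04 over all genes tested. Scaling by library size alone moved the median of all genes to 0.40, 0.51 and 0.57, and the members' calls from 1 higher and 2 lower to 5 and 1 in chow-fed KO, from 1 and 4 to 4 and 3 in CDAHFD-fed WT, and from 1 and 3 to 4 and 2 in CDAHFD-fed KO. Under that scaling 40.5%, 52.4% and 56.3% of all genes were higher and 6.62%, 6.74% and 6.31% lower. Changes below are therefore relative to the median gene. In bulk liver RNA, fewer cells of a type and less RNA per cell cannot be told apart.

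**Figure D2:**
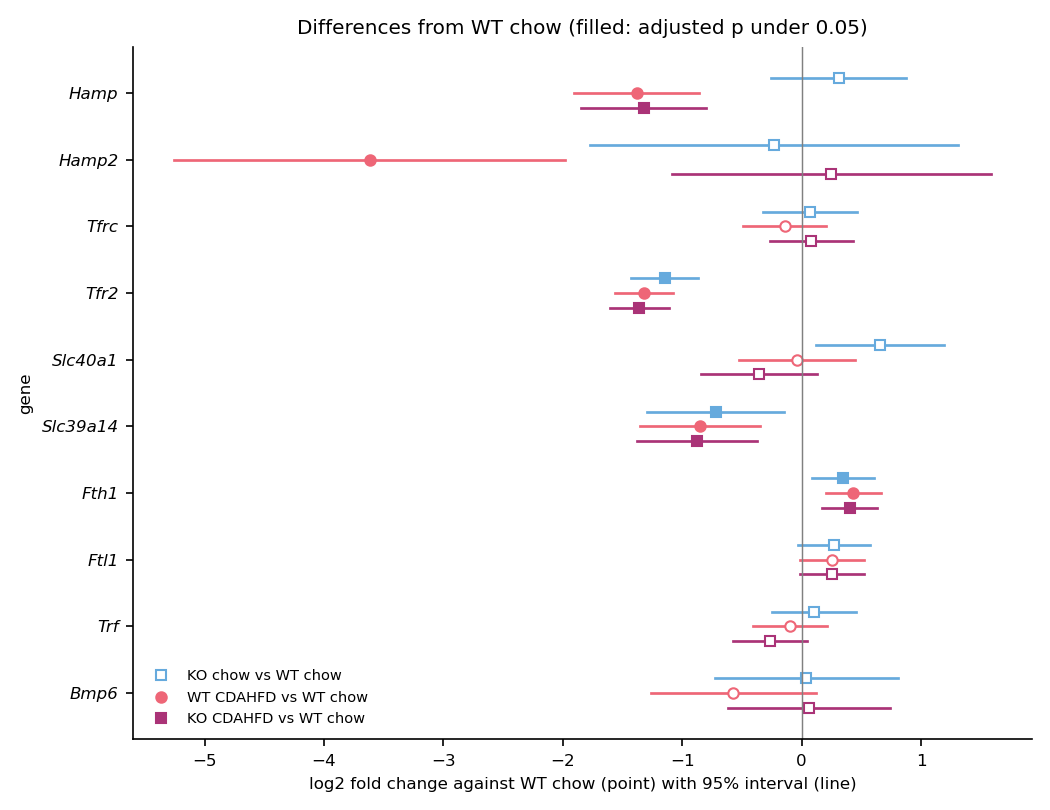
Difference of each gene from WT chow as log2 fold change (horizontal axis; points are edgeR estimates and lines 95% intervals) in chow-fed KO, CDAHFD-fed WT and CDAHFD-fed KO; filled points passed the test at an adjusted p below 0.05. Tfr2, Slc39a14 and Fth1 are filled in all 3 comparisons, Hamp in both CDAHFD groups, and Hamp2 in WT CDAHFD.

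Hamp encodes hepcidin, and its RNA was lower on CDAHFD in both genotypes and did not pass between genotypes on either diet with TMM scaling. Its levels in the 4 WT chow libraries were 763.5, 1004, 1142 and 1305 CPM, and in WT CDAHFD 406.9, 324.3 and 480.8 CPM. Chow-fed KO gave 1311 and 1304 CPM, and CDAHFD-fed KO 346.8, 603.7 and 313.8 CPM. Every chow library was above every CDAHFD library, and the 2 KO chow libraries were at the top of the WT chow range. Hamp fell 2.61-fold in CDAHFD-fed WT against WT chow (log2 fold change -1.38, SE 0.24, edgeR adjusted p = 0.000425) and 2.50-fold in CDAHFD-fed KO (-1.32, SE 0.24, adjusted p = 0.000545). Within the KO it fell 3.10-fold from chow to CDAHFD (-1.63, SE 0.28, adjusted p = 0.00601), a comparison in which 2 of the 10 genes passed beside 6.19% of all genes (3.76% higher and 2.44% lower). Chow-fed KO against WT chow gave 0.31 (95% interval -0.25 to 0.88, adjusted p = 0.373; 0.73 and adjusted p = 0.0171 under library size alone), and CDAHFD-fed KO against CDAHFD-fed WT 0.06 (95% interval -0.48 to 0.60, adjusted p = 0.968). The diet effect was not shown to differ between genotypes (difference of the diet effects -0.25, SE 0.36, edgeR adjusted p = 0.677). This difference was -0.60 without KO CDAHFD replicate 2, -0.08 without KO CDAHFD replicate 3 and -0.63 under library size alone, and passed in none of these fits. Compared directly, chow-fed KO was 3.24-fold higher than CDAHFD-fed WT in Hamp (1.69, SE 0.28, adjusted p = 0.00402). The summed hepatocyte markers were also lower in CDAHFD than in chow, with 8 of 8 markers lower in CDAHFD-fed WT and in CDAHFD-fed KO and 4 of 8 in chow-fed KO. Under library size alone 7, 5 and 1 of the 8 were lower in CDAHFD-fed WT, CDAHFD-fed KO and chow-fed KO, and 1 was higher in chow-fed KO. In the same order, 25.0%, 25.4% and 17.0% of all genes were lower with TMM scaling and 6.74%, 6.31% and 6.62% under library size alone. The part of these markers in the fall of Hamp was not tested.

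Hamp2, the second hepcidin gene of the mouse, was low in CDAHFD-fed WT and not in CDAHFD-fed KO. WT chow gave 1.20, 17.9, 13.6 and 5.55 CPM, CDAHFD-fed WT 0.70, 0.52 and 1.14 CPM, chow-fed KO 3.75 and 12.6 CPM, and CDAHFD-fed KO 11.3, 13.4 and 9.63 CPM. The WT CDAHFD libraries were below all the others, with WT chow replicate 1 just above them, and the chow groups spread over more than 3-fold. The counts behind these levels were 27 to 52 in WT CDAHFD and 31 to 569 elsewhere. Hamp2 fell 12.3-fold in CDAHFD-fed WT against WT chow (-3.62, SE 0.76, edgeR adjusted p = 0.00153), while CDAHFD-fed KO against WT chow gave 0.25 (95% interval -1.09 to 1.59, adjusted p = 0.760). The diet effect differed between genotypes by 4.10 on the log2 scale (SE 1.08, adjusted p = 0.0156), a test that 2 of the 10 genes and 23.1% of all genes passed (8.63% upward and 14.5% downward). Without KO chow replicate 1 this difference was 3.47 and no longer passed (adjusted p = 0.0803), without KO chow replicate 2 it was 5.22 and passed, and in the 8 libraries with a clock score above -1 it was 5.34 (adjusted p = 0.0281).

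Within CDAHFD, Hamp2 was 14.6-fold higher in KO than in WT, with no overlap of the libraries, but did not pass over all genes (3.87, SE 0.78, 95% interval 2.18 to 5.55, edgeR adjusted p = 0.0650). This was the one member with an unadjusted p below 0.05 in that comparison. It passed with DESeq2 (adjusted p = 0.000591), with every gene with a count tested (3.2e-06) and with the clock score as a covariate (0.0447). Of the 12 fits without 1 library it passed in 1, that without WT chow replicate 1 (0.00699). Log2 fold changes ran from 3.82 to 3.98 over all 8 alternatives and from 3.64 to 4.22 without 1 library. Hamp2 was 10.5-fold higher in chow-fed KO than in CDAHFD-fed WT (3.39, SE 0.81, adjusted p = 0.0298), a comparison in which 2 of the 10 genes passed beside 6.12% of all genes (2.71% higher and 3.42% lower). That call was lost without any 1 of the WT CDAHFD libraries or without KO chow replicate 2 (adjusted p = 0.0618 to 0.164) and in the 8 libraries with a clock score above -1 (2.26, adjusted p = 0.155). Without KO chow replicate 2 the value was 2.26 and without replicate 1 it was 4.0, which passed.

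Hamp and Hamp2 transcripts share 93.0% of 417 aligned columns and an identical run of 87 bases, so reads from one can be counted in the other. Hamp2 counts were 0.16% to 0.24% of Hamp counts in CDAHFD-fed WT, 0.16% to 1.78% in WT chow, 0.29% and 0.97% in chow-fed KO, and 2.22% to 3.26% in CDAHFD-fed KO. The share was lowest in WT chow replicate 1 and in WT CDAHFD, and how many Hamp2 counts are reads of Hamp was not tested.

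**Figure D3:**
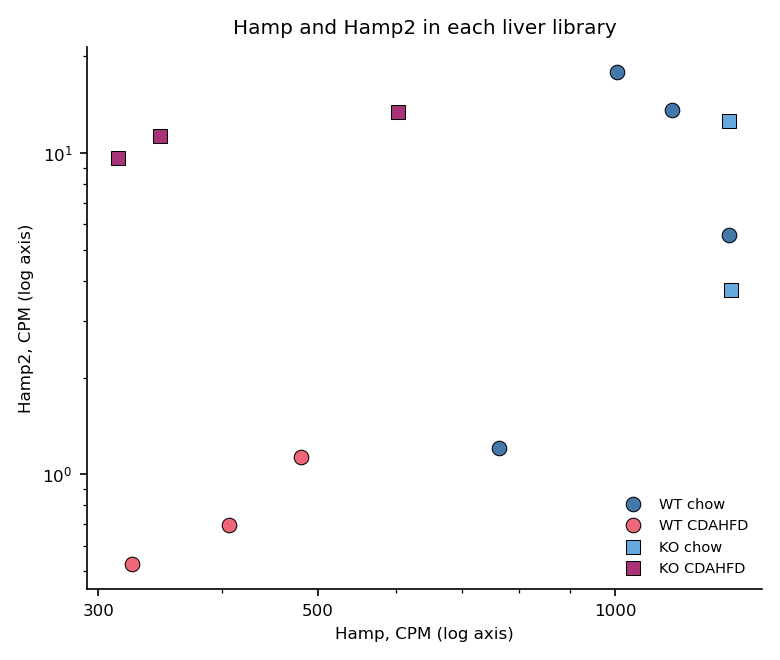
Hamp2 against Hamp in each of the 12 libraries, both in TMM-scaled CPM on log axes; circles are WT, squares are KO, and colours are the 4 groups. The 3 KO CDAHFD libraries join a low Hamp level (313.8 to 603.7) to a Hamp2 level of 9.63 to 13.4, whereas the 3 WT CDAHFD libraries are low in both.

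Tfr2 (chr5:137569840-137587481, plus strand) encodes transferrin receptor 2, a hepatocyte sensor of iron-loaded transferrin that acts upstream of hepcidin, and it was lower in every group than in WT chow. WT chow gave 540.0, 553.3, 636.5 and 598.7 CPM, and WT CDAHFD 240.0, 204.6 and 255.2 CPM. Chow-fed KO gave 262.3 and 263.3 CPM, and CDAHFD-fed KO 236.6, 238.0 and 206.7 CPM. The WT chow libraries stood above all others without overlap, and the other 3 groups lay close together. Tfr2 fell 2.21-fold in chow-fed KO (log2 fold change -1.15, SE 0.13, edgeR adjusted p = 2.24e-05), 2.50-fold in CDAHFD-fed WT (-1.32, SE 0.11, adjusted p = 1.05e-06) and 2.56-fold in CDAHFD-fed KO (-1.36, SE 0.11, adjusted p = 7.87e-07). All 3 calls held in each of the 12 fits without 1 library (-1.39 to -1.09) and under the 8 alternatives (-1.36 to -0.74), the smallest sizes being those scaled by library size alone. The diet effect differed between genotypes by 1.11 (SE 0.17, adjusted p = 0.000527), the KO being low on chow already. This difference held in all 12 fits without 1 library (1.02 to 1.18). Hepatocyte markers were lower in the same groups, as given for Hamp, and their part was not tested.

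Tfrc (chr16:32608920-32632794, plus strand) encodes transferrin receptor 1, which takes up iron-loaded transferrin in most cells, and Trf (chr9:103204001-103230444, minus strand) encodes transferrin itself, a major secreted product of hepatocytes. Neither passed the test in any of the 7 comparisons with TMM scaling. Tfrc was 21.6 to 36.4 CPM in WT chow, 23.8 to 26.3 in CDAHFD-fed WT, 25.5 and 33.6 in chow-fed KO and 26.2 to 32.1 in CDAHFD-fed KO, and all 4 ranges overlapped. Its differences from WT chow were 0.07, -0.14 and 0.08 in chow-fed KO, CDAHFD-fed WT and CDAHFD-fed KO, with 95% intervals of -0.33 to 0.46, -0.49 to 0.21 and -0.27 to 0.43. Trf was 17228 to 23536 CPM in WT chow, 17382 to 18273 in CDAHFD-fed WT, 21395 and 19853 in chow-fed KO and 14432 to 17268 in CDAHFD-fed KO. Its differences from WT chow were 0.11 (95% interval -0.24 to 0.46), -0.10 (-0.41 to 0.21) and -0.27 (-0.58 to 0.05). Without WT chow replicate 1 they were 0.23, 0.038 and -0.12. Scaled by library size alone, Trf was 0.50 higher in chow-fed KO (edgeR adjusted p = 0.0139), 0.45 higher in CDAHFD-fed WT (0.0101) and 0.33 higher in CDAHFD-fed KO (0.0418), and Tfrc was 0.68 higher in CDAHFD-fed KO (0.00358). The median gene rose by 0.40 in chow-fed KO, 0.51 in CDAHFD-fed WT and 0.57 in CDAHFD-fed KO under that scaling.

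Slc39a14 (ZIP14; chr14:70303469-70351425, minus strand), which brings iron not bound to transferrin into hepatocytes, was lower than in WT chow in the other 3 groups. WT chow gave 326.1, 207.6, 284.7 and 389.5 CPM, and WT CDAHFD 205.2, 135.2 and 162.5 CPM. Chow-fed KO gave 149.7 and 217.0 CPM, and CDAHFD-fed KO 162.7, 126.9 and 202.9 CPM. WT chow did not overlap the CDAHFD groups by a small margin, and its lowest library was below KO chow replicate 2. Slc39a14 fell 1.65-fold in chow-fed KO (log2 fold change -0.72, SE 0.27, edgeR adjusted p = 0.0471), 1.80-fold in CDAHFD-fed WT (-0.85, SE 0.23, adjusted p = 0.00826) and 1.84-fold in CDAHFD-fed KO (-0.88, SE 0.23, adjusted p = 0.00647). The chow-fed KO call was lost without WT chow replicate 1, 3 or 4, WT CDAHFD replicate 3, KO chow replicate 1 or KO CDAHFD replicate 1 (adjusted p = 0.0624 to 0.362), being -0.46 without KO chow replicate 1. It was also lost with DESeq2 size factors (-0.71, adjusted p = 0.0525) and in the 8 libraries with a clock score above -1 (-0.83, adjusted p = 0.0719). Scaled by library size alone the values were -0.31, -0.29 and -0.25 and none passed (adjusted p = 0.348, 0.294 and 0.356).

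Slc40a1 (chr1:45908068-45926523, minus strand) encodes ferroportin, the exporter that hepcidin removes from the cell surface, and is made by macrophages as well as hepatocytes. WT chow gave 150.1, 136.5, 273.5 and 237.8 CPM, and WT CDAHFD 201.8, 173.2 and 207.3 CPM. Chow-fed KO gave 250.3 and 377.9 CPM, and CDAHFD-fed KO 164.0, 149.98 and 154.1 CPM. Both KO chow libraries were above all KO CDAHFD libraries. Within WT chow and within KO chow the higher libraries were those with a clock score below -1, but KO CDAHFD replicate 3, also below -1, lay between the other libraries of its group, and the part of the time of day was not tested. Within the KO, Slc40a1 fell 2.01-fold from chow to CDAHFD (log2 fold change -1.01, SE 0.26, edgeR adjusted p = 0.0418). This call was lost without any 1 of the 8 libraries of CDAHFD-fed WT, chow-fed KO or CDAHFD-fed KO (adjusted p = 0.0596 to 0.228), with values from -1.26 without KO chow replicate 1 to -0.69 without KO chow replicate 2, and under library size alone (-0.80, adjusted p = 0.0682).

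Against WT chow, Slc40a1 differed by 0.66 in chow-fed KO (95% interval 0.12 to 1.19, edgeR adjusted p = 0.0516) and by -0.04 in CDAHFD-fed WT (-0.52 to 0.44, adjusted p = 0.897). It differed by -0.35 in CDAHFD-fed KO (-0.84 to 0.13, adjusted p = 0.205). That value was -0.46 without WT chow replicate 2 and -0.13 without WT chow replicate 3. The chow-fed KO difference passed in 7 of the 8 alternatives (0.66 to 1.07). It also passed without WT chow replicate 3 (0.86, edgeR adjusted p = 0.0105) or WT chow replicate 4 (0.76, 0.0391). Without KO chow replicate 1 it was 0.94, and without KO chow replicate 2 it was 0.33. In the 8 libraries with a clock score above -1, the WT CDAHFD difference was 0.44 and passed (adjusted p = 0.0118), as did 0.53 under library size alone (0.0447). The diet effects of the genotypes differed by -0.97 (SE 0.34, adjusted p = 0.0603), and this difference passed in 6 of the 8 alternatives. It was -0.98 with DESeq2 (adjusted p = 0.0316), -1.33 under library size alone (edgeR adjusted p = 0.00874) and -1.11 in those 8 libraries. Over the 12 fits without 1 library it ran from -1.25 (KO chow replicate 1 left out) to -0.65 (KO chow replicate 2 left out). Its size therefore depended on which KO chow library was kept. The summed level of 9 markers of Kupffer cells and other macrophages was 353.4 to 646.4 CPM in WT chow, 1234 and 1509 in chow-fed KO, 1468 to 2036 in CDAHFD-fed WT and 1364 to 1640 in CDAHFD-fed KO, with 7, 5 and 5 of the 9 markers higher than in WT chow in chow-fed KO, CDAHFD-fed WT and CDAHFD-fed KO, and none at 0. One marker, Timd4, named after its values were seen, was lower in CDAHFD-fed WT (-4.57, edgeR adjusted p = 1.42e-05) and CDAHFD-fed KO (-2.75, adjusted p = 0.000295). Of all genes, 22.0%, 26.1% and 26.9% were higher than in WT chow in chow-fed KO, CDAHFD-fed WT and CDAHFD-fed KO. The part of the macrophage markers in the level of Slc40a1 was not tested.

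Ferritin stores iron as a shell of heavy chains, which oxidise it, and light chains, which help to mineralise it. Fth1 (chr19:9980598-9985098, plus strand), the heavy chain, gave 1366, 1416, 1537 and 1474 CPM in WT chow and 2128, 1905 and 1836 CPM in WT CDAHFD. Chow-fed KO gave 1934 and 1746 CPM, and CDAHFD-fed KO 1957, 2011 and 1768 CPM. The WT chow libraries were below all others without overlap. Fth1 rose 1.27-fold in chow-fed KO (log2 fold change 0.35, SE 0.12, edgeR adjusted p = 0.0353). It rose 1.35-fold in CDAHFD-fed WT (0.43, SE 0.11, adjusted p = 0.00421) and 1.32-fold in CDAHFD-fed KO (0.40, SE 0.11, adjusted p = 0.00649). Scaled by library size alone the values were 0.75, 0.99 and 1.01, where the median of all genes was 0.40, 0.51 and 0.57. The chow-fed KO call was lost without KO chow replicate 1 (0.29, adjusted p = 0.173), KO chow replicate 2 (0.42, 0.0581) or KO CDAHFD replicate 1 (0.35, 0.0534). The diet effects of the genotypes differed by -0.38 (SE 0.17, adjusted p = 0.122), which did not pass with TMM scaling but did with DESeq2 (-0.38, adjusted p = 0.0287) and under library size alone (-0.73, adjusted p = 0.00162).

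Ftl1 (chr7:45457944-45459884, minus strand), the light chain, differed from WT chow by less than Fth1 in all 3 comparisons. It did not pass with TMM scaling over the 12 libraries. WT chow gave 1378, 1195, 1558 and 1548 CPM, and WT CDAHFD 1837, 1586 and 1652 CPM. Chow-fed KO gave 1858 and 1575 CPM, and CDAHFD-fed KO 1767, 1742 and 1576 CPM. Every library of the other 3 groups was above the highest WT chow library. The differences were 0.27 in chow-fed KO (95% interval -0.03 to 0.58, edgeR adjusted p = 0.141), 0.25 in CDAHFD-fed WT (-0.02 to 0.52, adjusted p = 0.107) and 0.26 in CDAHFD-fed KO (-0.01 to 0.52, adjusted p = 0.101). In the 8 libraries with a clock score above -1 all 3 passed, at 0.53, 0.40 and 0.45 (adjusted p = 0.0316, 0.0236 and 0.0223). Without KO chow replicate 1 the chow-fed KO difference was 0.17, and without KO chow replicate 2 it was 0.39. That of CDAHFD-fed KO passed in 1 of the 12 fits without 1 library (edgeR adjusted p = 0.0440). With DESeq2 the differences of CDAHFD-fed WT and CDAHFD-fed KO passed, at 0.29 and 0.30 (adjusted p = 0.0331 and 0.0300). Under library size alone all 3 passed, at 0.68, 0.81 and 0.87 (edgeR adjusted p = 0.000519, 3.34e-05 and 1.75e-05). Ferritin has pseudogenes that can share reads. The Fth1 pseudogenes held 16 counts over the 12 libraries beside 818049 of Fth1, and the retrogene Ftl1-ps1 on chromosome 13 held 0.44% to 1.02% of the Ftl1 counts of a library. Adding the pseudogene counts changed no call among the 10 genes.

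Bmp6 (chr13:38345107-38500302, plus strand), the endothelial ligand that drives hepcidin transcription, passed in none of the 7 comparisons. It gave 3.76, 6.51, 7.90 and 3.99 CPM in WT chow, 3.85, 4.39 and 2.99 CPM in CDAHFD-fed WT, 3.86 and 7.56 CPM in chow-fed KO, and 4.48, 5.05 and 7.92 CPM in CDAHFD-fed KO. Each of the other groups overlapped WT chow, whereas the highest WT CDAHFD library was just below the lowest KO CDAHFD library. Its differences from WT chow were 0.04 in chow-fed KO (95% interval -0.73 to 0.81), -0.57 in CDAHFD-fed WT (-1.26 to 0.12) and 0.06 in CDAHFD-fed KO (-0.61 to 0.74), so changes of about that width were not detectable. Bmp6 overlaps Txndc5 on the opposite strand by 224 exon bases. Txndc5 held 105121 counts beside 2340 of Bmp6, and the library protocol does not keep the strand, so part of the Bmp6 counts may be reads of Txndc5. Txndc5 itself passed in none of the 3 comparisons with WT chow (adjusted p = 0.306 to 0.990).

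Between the genotypes on CDAHFD, 0 of the 10 genes and 0.357% of all genes passed with edgeR, 1 had an unadjusted p below 0.05, and 1 (Hamp2) passed with DESeq2. The log2 differences ran from -0.31 for Slc40a1 to 3.87 for Hamp2. Of all genes, 0.0864% were higher and 0.271% lower in the KO.

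**Figure D4:**
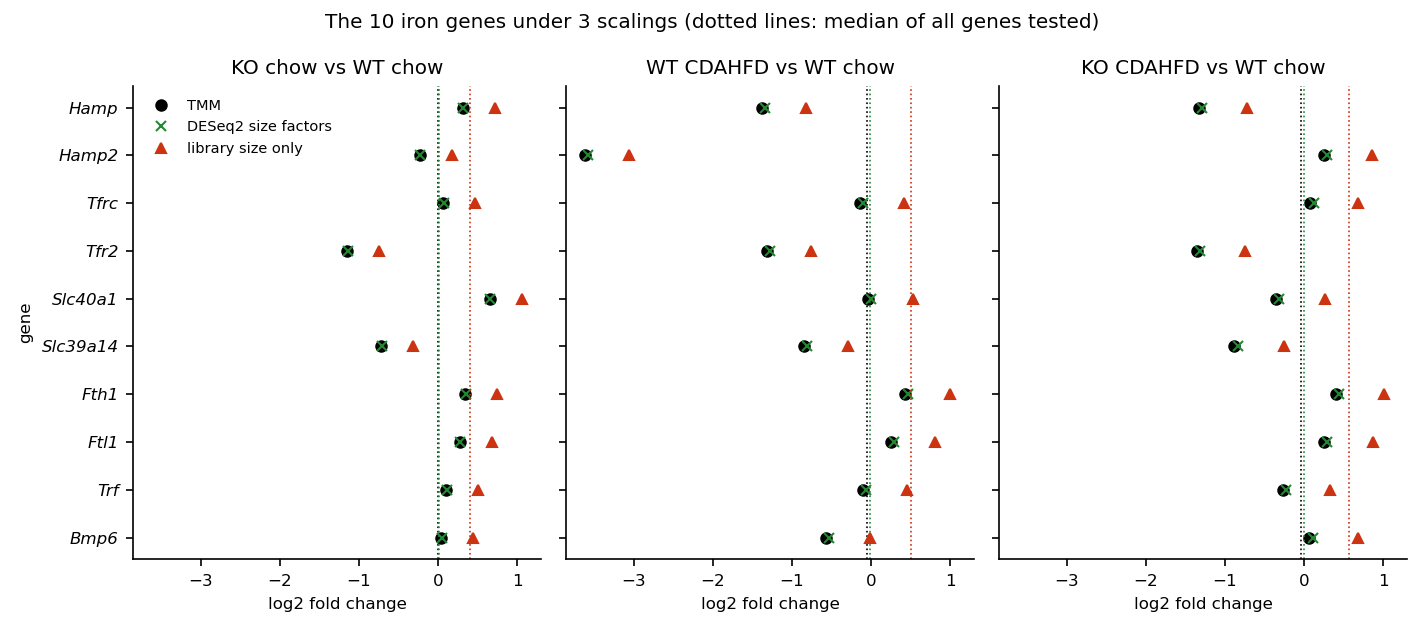
Log2 fold change of the 10 genes against WT chow (horizontal axes) in chow-fed KO, CDAHFD-fed WT and CDAHFD-fed KO under TMM (circles), DESeq2 size factors (crosses) and library size alone (triangles); dotted lines are the median of all tested genes under each scaling. TMM and DESeq2 size factors nearly coincide, and library size alone moves every gene up by about the shift of the median, 0.40, 0.51 and 0.57, so that Trf, Tfrc and Slc40a1 in CDAHFD-fed WT and Trf and Slc40a1 in CDAHFD-fed KO change sign, as does Hamp2 in chow-fed KO.

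Genes around the 10 were described by lists of the iron pathway, each by its count and its median. Every list count stands beside the shares of all genes. These were 22.0%, 26.1% and 26.9% higher and 17.0%, 25.0% and 25.4% lower in chow-fed KO, CDAHFD-fed WT and CDAHFD-fed KO. Of 21 tested genes of the BMP-SMAD input to hepcidin, 2 were higher and 4 lower in chow-fed KO, 3 and 5 in CDAHFD-fed WT, and 3 and 8 in CDAHFD-fed KO (medians -0.09, -0.06 and -0.16). Under library size alone 9 were higher and 1 lower, 14 and 0, and 13 and 2, where the calls over all genes turned the same way (40.5%, 52.4% and 56.3% higher, 6.62%, 6.74% and 6.31% lower). Tmprss6, the protease that damps hepcidin by cleaving the BMP co-receptor, fell from a mean of 645.9 CPM (SD 57.6, n = 4) in WT chow to 348.3 (SD 21.9, n = 2) in chow-fed KO, 372.6 (SD 28.9, n = 3) in CDAHFD-fed WT and 322.4 (SD 39.9, n = 3) in CDAHFD-fed KO, which are log2 fold changes of -0.89, -0.79 and -1.0 (edgeR adjusted p = 0.000256, 0.000122 and 1.7e-05). Scaled by library size alone it was -0.23 in WT CDAHFD and did not pass (adjusted p = 0.0597). Id1, a common target of BMP signalling, rose by 1.71, 1.09 and 1.67 (adjusted p = 2e-05, 0.000215 and 5.65e-06). Bmp2, the other endothelial ligand, fell in CDAHFD-fed WT (-0.79, adjusted p = 0.00321) and CDAHFD-fed KO (-0.79, adjusted p = 0.00295), and did not pass under library size alone (-0.23 and -0.18). Of 8 markers of the sinusoidal endothelium, 3 were lower and 1 higher in each of these 2 comparisons (medians -0.48 and -0.30), beside 0 lower and 2 higher under library size alone, and their part in Bmp2 was not tested. Smad6, an inhibitory SMAD, rose in CDAHFD-fed KO (1.02, adjusted p = 0.000342), while its call in CDAHFD-fed WT (0.47, adjusted p = 0.0396) was lost without WT chow replicate 1, 2 or 4, WT CDAHFD replicate 1 or 3, or KO CDAHFD replicate 1 or 2 (adjusted p up to 0.148). Hfe, Hfe2 (hemojuvelin), Smad7 and Atoh8 passed in none of the 3 comparisons, with group means of 59.2 to 66.7, 105.1 to 126.2, 18.3 to 23.6 and 25.6 to 36.5 CPM.

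Of 9 tested genes of the inflammatory input to hepcidin, 1 was higher in each comparison with WT chow, and 2, 1 and 1 were lower in chow-fed KO, CDAHFD-fed WT and CDAHFD-fed KO (medians 0.13, 0.09 and -0.04), while under library size alone 3, 6 and 5 were higher and 1 lower in each. Over all genes 22.0%, 26.1% and 26.9% were higher and 17.0%, 25.0% and 25.4% lower. Library size alone made these shares 40.5%, 52.4% and 56.3% higher and 6.62%, 6.74% and 6.31% lower. Creb3l3, a liver transcription factor activated at the endoplasmic reticulum, fell by 1.0, 0.88 and 1.43 on the log2 scale (edgeR adjusted p = 0.000178, 8.4e-05 and 1.55e-06). Il1b, an inflammatory cytokine of macrophages, rose by 1.37, 1.0 and 0.85 (adjusted p = 0.00166, 0.00481 and 0.0117), although its mean was only 3.22 CPM in WT chow and 8.29 at most. In the 8 libraries with a clock score above -1 the KO CDAHFD value of Il1b did not pass (0.85, adjusted p = 0.0805). Il6ra, the interleukin 6 receptor, fell by 0.95 in chow-fed KO (adjusted p = 0.0412), a call lost under library size alone (-0.53, adjusted p = 0.215) and in 8 of the 12 fits without 1 library, namely WT chow replicate 2, 3 or 4 or any library of CDAHFD-fed WT or chow-fed KO (adjusted p up to 0.284). Il6 itself did not pass the filter on low counts. Most macrophage markers were higher in the same groups, as given above, and their part in Il1b was not tested.

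Of 5 genes of the iron regulatory protein system, 2 were lower in chow-fed KO, 4 lower and 1 higher in CDAHFD-fed WT, and 4 lower in CDAHFD-fed KO (medians -0.14, -0.41 and -0.55), while under library size alone 2 were higher in each and 1, 0 and 1 lower. Over all genes 22.0%, 26.1% and 26.9% were higher and 17.0%, 25.0% and 25.4% lower. Library size alone made these shares 40.5%, 52.4% and 56.3% higher and 6.62%, 6.74% and 6.31% lower. Aco1 and Ireb2 encode the iron regulatory proteins that bind the hairpins printed above. Aco1 fell by 0.55, 0.57 and 0.63 on the log2 scale (edgeR adjusted p = 0.000902, 0.00017 and 7.18e-05), and Ireb2 fell by 0.85, 0.81 and 0.95 (adjusted p = 0.00105, 0.000332 and 8.91e-05). Scaled by library size alone, Aco1 did not pass in chow-fed KO, CDAHFD-fed WT or CDAHFD-fed KO (-0.15, -0.01 and -0.01), nor did Ireb2 in CDAHFD-fed WT (-0.24). Fbxl5, which marks these proteins for degradation when iron is plentiful, rose in CDAHFD-fed WT (0.27, edgeR adjusted p = 0.0247). This call was lost without any 1 of the 3 WT CDAHFD libraries (adjusted p = 0.0589 to 0.0726). It was also lost with every gene with a count tested (0.32, adjusted p = 0.0539).

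Among 11 genes of iron import and reduction, 3 were higher and 2 lower in chow-fed KO and 6 and 2 in CDAHFD-fed WT. In CDAHFD-fed KO 3 were higher and 3 lower (medians of the 3 comparisons 0.02, 0.44 and 0.18). The shares of all genes were 22.0%, 26.1% and 26.9% higher and 17.0%, 25.0% and 25.4% lower. Under library size alone the counts were 4 and 0, 7 and 1, and 7 and 2. That scaling had 40.5%, 52.4% and 56.3% of all genes higher and 6.62%, 6.74% and 6.31% lower. Lcn2, a siderophore-binding protein of inflammation, had a mean of 9.81 CPM (SD 13.5, n = 4) in WT chow, 184.5 (SD 106.2, n = 2) in chow-fed KO, 539.3 (SD 134, n = 3) in CDAHFD-fed WT and 361.7 (SD 79.9, n = 3) in CDAHFD-fed KO. It rose by 4.24, 5.78 and 5.21 (edgeR adjusted p = 0.000979, 6.13e-05 and 0.000112), and by 5.91, 7.46 and 6.89 without WT chow replicate 1, and the chow-fed KO value was 3.49 without KO chow replicate 1. Slc11a1, an iron transporter of macrophage phagosomes, rose by 1.79, 2.67 and 2.38 (adjusted p = 3.82e-05, 4e-07 and 9.19e-07). Lrp2, an endocytic receptor, fell in CDAHFD-fed WT (-3.02, adjusted p = 0.000429) and CDAHFD-fed KO (-3.11, adjusted p = 0.000368), from a mean of 6.32 CPM in WT chow, and the values were -2.36 and -2.44 without WT chow replicate 1. Heph, an iron oxidase of export, rose by 1.28 in CDAHFD-fed WT (adjusted p = 0.000841) and 1.68 in CDAHFD-fed KO (adjusted p = 9.36e-05), while its call in chow-fed KO (0.80, adjusted p = 0.0365) was lost without WT chow replicate 1 or 4, WT CDAHFD replicate 1 or either KO chow library (adjusted p up to 0.169). It was 1 of 2 tested genes of iron export and oxidation, and the other passed in none of the 3 comparisons (list medians 0.51, 0.75 and 0.77), although both were higher in all 3 under library size alone.

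Of 4 tested genes of ferritin handling, 1, 1 and 2 were lower in chow-fed KO, CDAHFD-fed WT and CDAHFD-fed KO (medians -0.24, -0.24 and -0.40), while under library size alone 1 was lower in each and 0, 2 and 2 higher. Timd2, a ferritin receptor, fell by 0.90, 1.46 and 1.32 on the log2 scale (edgeR adjusted p = 0.001, 4.67e-06 and 9.49e-06). Ncoa4, the cargo receptor that sends ferritin to lysosomes, fell in KO CDAHFD (-0.56, adjusted p = 0.00589), and was 0.06 under library size alone. Of 12 genes of haem and haemoglobin scavenging, 5 were higher in each comparison and 3, 2 and 3 lower (medians 0.26, 0.29 and 0.19). Under library size alone 6, 8 and 8 were higher and 1, 1 and 2 lower. Both lists stand beside 22.0%, 26.1% and 26.9% of all genes higher and 17.0%, 25.0% and 25.4% lower. With library size alone these shares were 40.5%, 52.4% and 56.3% higher and 6.62%, 6.74% and 6.31% lower. Hmox1, the enzyme that frees iron from haem, rose from a mean of 21.5 CPM (SD 6.48, n = 4) in WT chow to 124.3 (SD 28.2, n = 2) in chow-fed KO, 114.2 (SD 15.0, n = 3) in CDAHFD-fed WT and 99.1 (SD 9.12, n = 3) in CDAHFD-fed KO, by 2.53, 2.41 and 2.20 (adjusted p = 2.67e-06, 9.77e-07 and 1.86e-06). Cd163, the haemoglobin receptor of resident macrophages, fell by 4.405 in CDAHFD-fed WT (adjusted p = 2.45e-05) and 3.10 in CDAHFD-fed KO (adjusted p = 0.000209), the latter by 3.80 without KO CDAHFD replicate 2. Its fall of 1.72 in chow-fed KO (adjusted p = 0.0228) was lost without either KO chow library (adjusted p = 0.0993 and 0.124) and under library size alone (-1.33, adjusted p = 0.0559). Flvcr2, a membrane transporter, rose by 1.79, 1.92 and 1.51 (adjusted p = 0.000541, 0.000102 and 0.000636). Of the 9 markers of Kupffer cells and other macrophages, 7, 5 and 5 were higher and 0, 1 and 1 lower, the lower one being Timd4 of resident macrophages, and their part in Hmox1, Slc11a1 and Cd163 was not tested.

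Of 10 genes of haem synthesis, none was higher and 7, 8 and 8 were lower in chow-fed KO, CDAHFD-fed WT and CDAHFD-fed KO. Their medians were -0.46, -0.50 and -0.51. The share of all genes that were lower was 17.0%, 25.0% and 25.4%. Under library size alone 1, 2 and 2 of the 10 were lower and 0, 0 and 1 higher. That scaling had 6.62%, 6.74% and 6.31% of all genes lower and 40.5%, 52.4% and 56.3% higher. Abcb10, a mitochondrial transporter, fell by 1.46, 1.52 and 1.67 on the log2 scale (edgeR adjusted p = 2.25e-06, 2.23e-07 and 1.09e-07), and kept its call in all 3 under library size alone. Urod, a decarboxylase of the pathway, fell by 0.63, 0.81 and 0.77 (adjusted p = 0.00202, 6.67e-05 and 9.03e-05), and Cpox, an oxidase, by 0.76, 0.41 and 0.98 (adjusted p = 0.00203, 0.0213 and 5.98e-05). The Cpox call in CDAHFD-fed WT was lost without WT chow replicate 3, where the value was -0.26, or WT CDAHFD replicate 2 or 3 (adjusted p = 0.0592 to 0.0885), and the value was 0.15 under library size alone. Under that scaling Urod did not pass in chow-fed KO (-0.22, adjusted p = 0.103) or CDAHFD-fed KO (-0.16, 0.138), nor Cpox in chow-fed KO (-0.35, 0.0769). Haem synthesis is also strong in erythroid cells. Of 6 tested erythroid markers, 1, 6 and 2 were lower and 1, 0 and 0 higher in the same 3 comparisons. Under library size alone 1, 1 and 1 were lower and 3, 0 and 0 higher. The hepatocyte markers had 4, 8 and 8 of 8 lower. With library size alone 1, 7 and 5 of them were lower and 1 was higher in chow-fed KO. The part of the erythroid or hepatocyte markers in the list was not tested.

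Of 20 tested genes of mitochondrial iron and iron-sulfur clusters, 3, 14 and 14 were lower and 0, 0 and 1 higher in chow-fed KO, CDAHFD-fed WT and CDAHFD-fed KO (medians -0.16, -0.43 and -0.43), beside 17.0%, 25.0% and 25.4% of all genes lower. Under library size alone 1, 0 and 1 were lower and 3, 6 and 9 higher. Of all genes, 6.62%, 6.74% and 6.31% were lower and 40.5%, 52.4% and 56.3% higher under that scaling. Of the 8 hepatocyte markers 4, 8 and 8 were lower in the same comparisons (medians -0.55, -1.16 and -0.96), and their part in this list was not tested. Fdx1, a ferredoxin, fell by 0.75, 0.73 and 0.68 on the log2 scale (edgeR adjusted p = 0.00185, 0.000534 and 0.000882), and did not pass under library size alone in CDAHFD-fed WT (-0.17, adjusted p = 0.205) or CDAHFD-fed KO (-0.06, 0.654). Cisd1, an iron-sulfur protein of the outer membrane, fell in CDAHFD-fed WT (-0.84, adjusted p = 0.000772) and CDAHFD-fed KO (-0.90, adjusted p = 0.000425), and its call in chow-fed KO (-0.54, adjusted p = 0.0319) was lost without WT chow replicate 2, 3 or 4 or either KO chow library (adjusted p = 0.0598 to 0.160). Under library size alone Cisd1 passed in none of the 3 (-0.13, -0.28 and -0.29, adjusted p = 0.521, 0.0933 and 0.0763). Iba57, an assembly factor, fell in KO CDAHFD (-0.94, adjusted p = 3.53e-05). In the 8 libraries with a clock score above -1, Fdx1 (-0.56, adjusted p = 0.0654), Cisd1 (-0.36, 0.319), Urod (-0.40, 0.0538) and Heph (0.69, 0.161) did not pass in KO chow. Between the genotypes on CDAHFD, 1 gene of the scavenging list and 1 of this list were lower. No gene of the other 7 pathway lists passed with edgeR, where 0.0864% of all genes were higher and 0.271% lower.

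**Figure D5:**
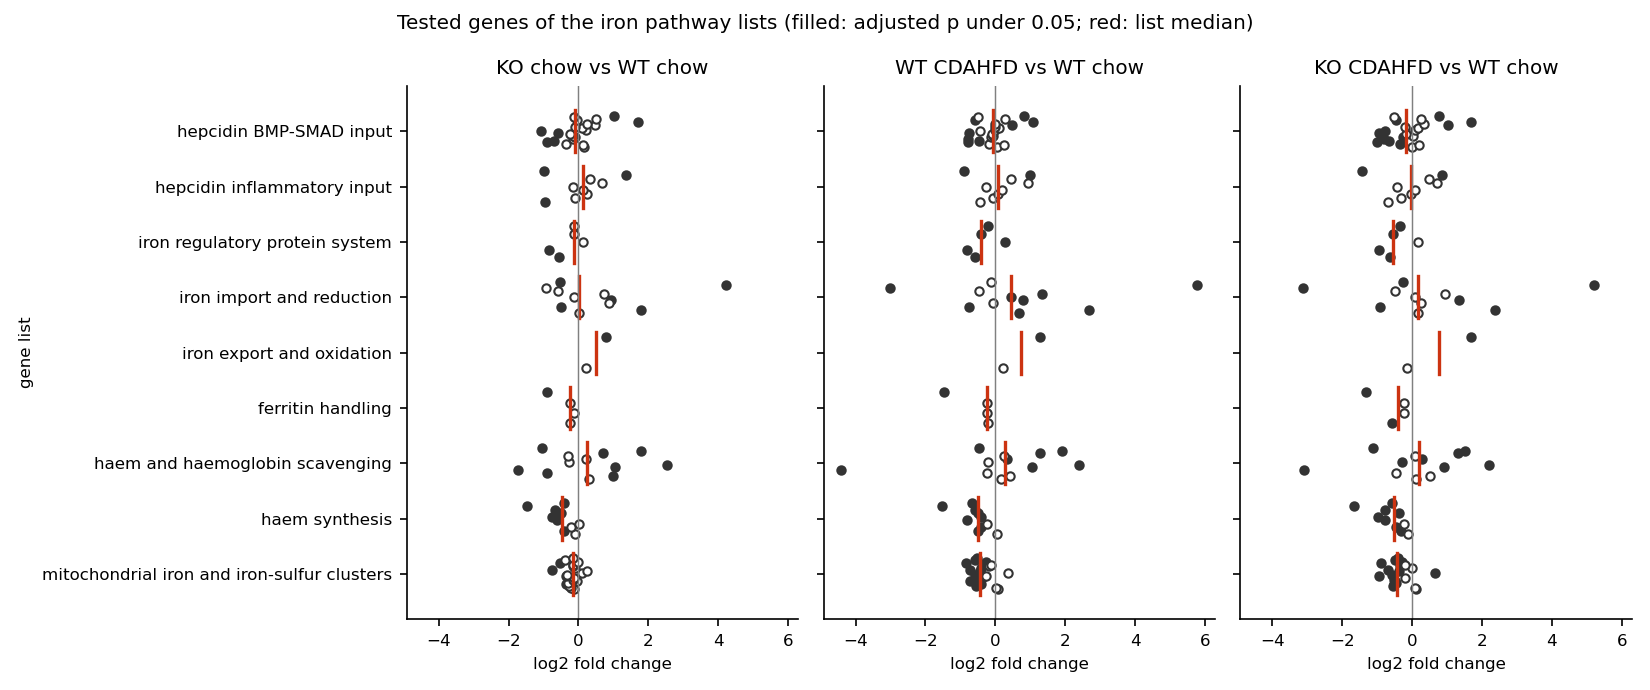
Log2 fold change against WT chow (horizontal axes) of each tested gene of the 9 iron pathway lists (rows) in chow-fed KO, CDAHFD-fed WT and CDAHFD-fed KO; filled points passed the test at an adjusted p below 0.05 and red bars are list medians. The points of haem synthesis lie at or below 0 in nearly all cases, with medians of -0.46, -0.50 and -0.51, whereas import and scavenging spread to both sides.

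Genes whose log2 level followed that of a member most closely over the 12 libraries were listed from 13362 genes as a description, since the libraries share group, diet and scaling. For Hamp they were Hspa9 (Pearson r = 0.968, Spearman rho = 0.958), Prps1, Mycbp, Pa2g4 and Gsto1, with r from 0.952 to 0.968. Hspa9, a mitochondrial chaperone that is also on the iron-sulfur list, had mean levels of 761.9 CPM in WT chow, 899.0 in chow-fed KO, 558.0 in CDAHFD-fed WT and 590.1 in CDAHFD-fed KO. For Slc40a1 they were Sec23a (r = 0.934), Pkp4, Slc35d1, Nab1 and Rgs4. For Tfrc the closest was D830044D21Rik with an r of 0.802.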

How the data were processed

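Poly-A RNA of 12 mouse livers was sequenced for the authors by a service provider in libraries that, per the labels, do not keep the strand. Per the submitters' processing notes and the methods, read quality was checked with FastQC 0.11.5 and reads were aligned to GRCm38 with STAR 2.7.3a; the counting program and annotation release are not given in the sources used here. Per the files, the authors deposited raw read counts per Ensembl gene, and no other column was used. Groups and replicate numbers were taken from the sample labels. The methods describe livers of separate mice, so p-values measure the spread between mice, each sequenced once.

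Identifiers were joined to GENCODE M21 (52081 matched, 94.08%, with 99.691% of the counts). Counts were fitted in edgeR 4.0.16 (R 4.3.3) with TMM scaling, filterByExpr and a mean per group over all 12 libraries, which share 1 estimate of the spread, with quasi-likelihood tests and Benjamini-Hochberg adjustment over 17358 genes at 0.05. Intervals are 95%. The 7 comparisons were the 3 groups against WT chow, 3 others between groups, and the difference of the diet effects. RPKM used exon unions. The fit was tested on simulated counts. No libraries were duplicates (chi-square per degree of freedom at least 18.8). Same-numbered libraries did not deviate together (correlations -0.24 to 0.27), so numbers only name libraries. Alternatives were DESeq2 1.42.0 and its size factors, library size alone, no filter, a replicate block, a clock score covariate, pseudogene counts added and each library left out; the fit on the 8 libraries with a clock score above -1 was chosen after seeing the data. The members and lists were chosen with earlier results of these data known. All members and Ppara are named, with a preset set of regulators and, of each other list, up to 3 called genes with the largest change and a mean of at least 1 CPM; for likeness the 5 closest genes were taken. Promoter sequences are from RefSeq (GRCm38.p6) and hairpins from GENCODE M21 transcripts. Counts limit precision for Hamp2 and Bmp6, with 27 to 569 and 87 to 333 counts per library, and this covers counting error only. The values of one marker are not reported here.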

Additional observations from a re-analysis of the deposited data

Results flagged for a closer look

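The effect of CDAHFD differed between the genotypes for Hamp2 by 4.1 on the log2 scale and for Tfr2 by 1.11, both by the interaction test given above. Hamp2 was lower on CDAHFD in WT and not in KO, and Tfr2 was lower on CDAHFD in WT while KO was already low on chow. Among 40 genes checked in the 4 WT chow libraries, replicate 1 stood apart from the others for Lcn2, where its gap to the next library was 0.955 of the group's range, and for Cisd1, where it was 0.84, both above Dixon's critical value for 4 samples. Chance gives such a gap in about 1 of 20 genes; 2 of the 40 had one.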

How the results depend on the processing

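Hamp (both CDAHFD groups against WT chow), Tfr2 (the 3 comparisons) and Hamp2 (WT CDAHFD against WT chow) kept their direction and call under all 8 alternatives and in all 12 fits without 1 library. The number of the 10 genes that passed was 6 in KO chow against WT chow under library size alone (47.1% of all genes), and 1 to 3 without 1 library. Between genotypes on CDAHFD it was 1 with DESeq2, with every gene tested and with the clock covariate, and 0 to 1 without 1 library. KO CDAHFD against KO chow gave 1 under library size alone and 1 to 2 without 1 library, KO chow against WT CDAHFD gave 1 in the 8 libraries with a clock score above -1 and 1 to 2 without 1 library, and the difference of the diet effects gave 6 under library size alone (28.5% of all genes), 4 with DESeq2 (26.8%) and 2 to 3 without 1 library.

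Of all genes, 62 passed between genotypes on CDAHFD, beside 250 with DESeq2, 215 with every gene tested, 161 with the clock covariate, 113 in the 8 libraries and 26 to 75 without 1 library. KO CDAHFD against KO chow gave 1075, beside 1903 with DESeq2, 1614 with the clock covariate, 600 in the 8 libraries and 233 to 1437 without 1 library. KO chow against WT CDAHFD gave 1063, beside 2074, 2334, 2680 and 260 to 1469 in the same order. Without 1 library, KO chow against WT chow gave 4320 to 7128, WT CDAHFD against WT chow 7299 to 8985, KO CDAHFD against WT chow 7919 to 9207 and the difference of the diet effects 2828 to 4630.

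These log2 differences from WT chow changed sign, none having passed with TMM except Ncoa4 and Cpox. Library size alone, which moves all genes of a comparison up by about the shift of the median, gave Hamp2 in KO chow 0.17, Tfrc 0.41, Slc40a1 0.53 and Trf 0.45 in WT CDAHFD, Slc40a1 0.27, Trf 0.33 and Ncoa4 0.0565 in KO CDAHFD, and Cpox 0.15 in WT CDAHFD. For the other settings the cause was not tested. The 8 libraries with a clock score above -1 gave Tfrc -0.30 and Bmp6 -0.42 in KO chow, Slc40a1 0.44 in WT CDAHFD, and Slc40a1 0.13 and Bmp6 -0.12 in KO CDAHFD. Slc40a1 in WT CDAHFD was 0.001 with DESeq2 size factors and with DESeq2, 0.019 with every gene tested and 0.12 with the clock covariate, which gave Bmp6 -0.041 in KO CDAHFD. Without 1 library the ranges were, for Hamp2, -1.36 to 0.40 in chow-fed KO and -0.092 to 0.78 in CDAHFD-fed KO; for Tfrc, -0.14 to 0.27 in chow-fed KO, -0.24 to 0.032 in CDAHFD-fed WT and -0.0029 to 0.26 in CDAHFD-fed KO; for Slc40a1 and Trf in CDAHFD-fed WT, -0.16 to 0.17 and -0.13 to 0.038; and for Bmp6, -0.53 to 0.46 in KO chow and -0.22 to 0.32 in KO CDAHFD.

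The replicate numbers did not pair the samples, and a fit with them as a replicate block gave 1 of the 10 genes between genotypes on CDAHFD and 640 genes in KO CDAHFD against KO chow. Under that block Tfrc was -0.074 in KO chow and -0.013 in KO CDAHFD, Slc40a1 0.10 in WT CDAHFD and Bmp6 -0.036 in KO CDAHFD. Calls against WT chow lost under the block were Slc39a14 (-0.46, adjusted p = 0.198), Fth1 (0.33, 0.128), Il6ra (-0.61, 0.137) and Cisd1 (-0.48, 0.115) in KO chow, and Smad6 (0.35, 0.0854) and Fbxl5 (0.26, 0.0699) in WT CDAHFD. Those gained were Slc40a1 in KO chow (0.92, 0.0199) and in the difference of the diet effects (-1.22, 0.0289), and Hamp2 between genotypes on CDAHFD (3.95, 0.0413). With 2 KO chow libraries and a lone one when either is left out, the lone library is assumed to vary like the other groups.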
